A study of Ovis aries with 6 samples.

Results

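The 44 genes described here are carriers of amino acids and related small molecules from the solute carrier (SLC) families SLC1, SLC6, SLC7, SLC36, SLC38 and SLC43. They are all symbols of these families found on a protein-coding locus of the deposited table, other than the cystine carrier SLC7A11. The table names 28479 loci, of which 14702 had a mean FPKM (fragments scaled by the length of the locus and the depth of the library) of at least 1 and were tested. Of the 44 carriers, 20 were among the tested loci, 19 lay under that level and 5 had 0 counts in every library. The table also describes loci of SLC6A8 and SLC6A14, but under Ensembl identifiers in place of symbols, so they are not among the 44.

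RNA came from sheep (Ovis aries) granulosa cells, the somatic cells that line the ovarian follicle and surround the oocyte. The atretic group has 3 libraries from follicles undergoing degeneration, and the healthy group has 3 libraries from follicles that were not. Ribosomal RNA was removed before library preparation, so unspliced RNA is also sequenced. The labels call the 3 libraries of a group independent biological replicates and name no animal, breed, age, follicle size or criterion for atresia, so the p-values measure the spread between these libraries. Groups were read from the initials in the titles and the design text.

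Cells take up amino acids through carriers that couple transport to sodium, protons or the exchange of another amino acid. Sodium-coupled carriers concentrate amino acids in the cell, and exchangers then trade them for others. Several SLC7 proteins reach the cell surface only when bound to a heavy chain, SLC3A2 or SLC3A1. Carriers on the lysosome release amino acids to the cytosol and take part in signalling to the growth regulator mTORC1. The oocyte receives part of its amino acids from granulosa cells through gap junctions, and in the mouse the cumulus cells are known for SLC38A3.

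Total counts lay between 87455037 and 91597388 per library. Of the 12 granulosa markers, 11 were found, all above the mean FPKM of 1, and the gene of the FSH receptor, FSHR, had between 1107 and 1826 CPM. CPM are counts relative to library size, scaled by TMM, a normalization that corrects for differences in RNA composition. Healthy replicate 3 stood apart from the rest. The granulosa markers summed to 38071 CPM in it and to between 10494 and 10892 CPM in each of the others. The biological coefficient of variation (the relative spread beyond counting error) was 0.45 and 0.447 between this library and healthy replicates 1 and 2, and 0.137 between those 2. Fold changes of the carriers are therefore given with and without healthy replicate 3.

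Among these carriers, the highest mean FPKM were those of SLC38A2 and SLC38A10, of the family of sodium-coupled neutral amino acid carriers. The large neutral amino acid carrier SLC43A2, the cationic amino acid carrier SLC7A1 and the serotonin carrier SLC6A4 followed. The loci of SLC7A1 and SLC6A4 each overlap a protein-coding locus on the opposite strand, so their levels may include its reads. With edgeR's quasi-likelihood test, adjusted by Benjamini-Hochberg over all tested loci, none of the 20 passed as higher or lower in atretic than in healthy. In the table as a whole 7 loci passed as higher (0.0476%) and 3 as lower (0.0204%). On simulated data with the spread of all 6 libraries, that test recovered 1 of 50 loci changed 1.5-fold and 12 of 50 changed 2-fold. It recovered 50 of 50 changed 4-fold. Most changes of 2-fold or less could thus be missed, and no size between 2-fold and 4-fold was simulated. At an unadjusted p under 0.05, SLC7A5 was higher and SLC36A1, SLC6A6, SLC6A4 and SLC38A10 were lower, against 6.37% of all tested loci higher and 6.41% lower (3.88% and 8.64% of the 9542 protein-coding ones). DESeq2 called SLC7A5 alone, as higher, against 2.53% of loci called higher and 1.75% lower.

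Without healthy replicate 3, 1 carrier passed as higher and 9 as lower, where 10.9% of the 14702 loci passed as higher and 7.91% as lower. Since the carriers are protein-coding by choice, the nearer background is the 9542 protein-coding loci of that fit, of which 5.88% passed as higher and 10.9% as lower. The higher carrier was SLC7A5, and the lower ones were SLC7A7, SLC1A5, SLC43A3, SLC6A9, SLC38A7, SLC6A6, SLC36A1, SLC6A4 and SLC38A10. In the same 5 libraries DESeq2 called 1 higher and 9 lower, against 14.4% and 10.4% of loci, library sizes alone in place of TMM gave 0 and 9 (7.54% and 16.1%), and protein-coding loci alone gave 2 and 5 (10.1% and 8.02%). That comparison sets 3 atretic libraries against only 2 healthy ones. Against healthy replicates 1 and 2 alone, 3 carriers had every atretic library higher and 10 had every one lower, where 24.8% and 25.1% of loci did, and 15.7% and 33% of protein-coding loci. Leaving out any of the other 5 libraries gave 0 carriers higher and 0 lower by edgeR. With all 6 libraries the median log2 fold change (atretic minus healthy throughout) of the 20 carriers was -0.05, beside -0.03 for all tested loci and -0.07 for protein-coding ones. Without healthy replicate 3 it was -0.16, beside -0.01 and -0.09.

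**Figure D1:**
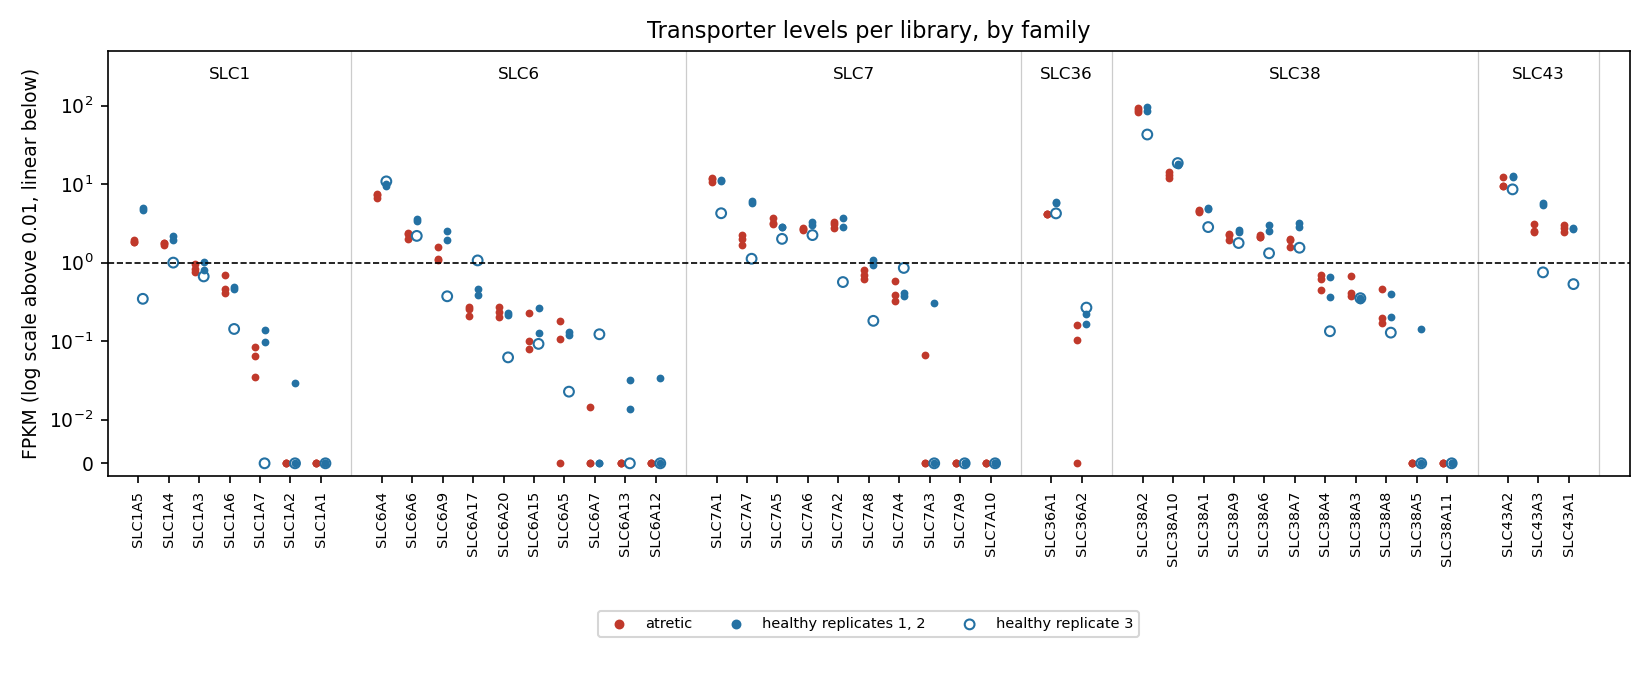
FPKM of the carriers named in the text in each library, on a vertical axis that is logarithmic above 0.01 and linear below, grouped by family and sorted by mean. Red points are the 3 atretic libraries, filled blue points healthy replicates 1 and 2, open circles healthy replicate 3, and the dashed line marks an FPKM of 1. SLC38A2 lies far above all other carriers, and carriers with 0 counts sit on the base line.

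The order of levels was led by SLC38A2, with a mean of 81.5 FPKM. SLC38A10 followed at 15.6, SLC43A2 at 10.8, SLC7A1 at 10.1 and SLC6A4 at 8.64 FPKM. SLC38A2 lay above every other carrier in every library. SLC43A2 (8.58 to 12.8 FPKM), SLC7A1 (4.26 to 12) and SLC6A4 (6.68 to 10.8) overlapped, so their order is not set by these data. The other 15 tested carriers had means between 1.43 and 4.72 FPKM. SLC38A2 alone made up 47.9 to 52.7% of the summed FPKM of the 44 carriers in the atretic libraries, 43.3 and 46.5% in the first 2 healthy libraries, and 38.3% in the third. The summed FPKM of all 44 was 170 to 175 in the atretic libraries, 199 and 208 in the first 2 healthy libraries, and 112 in the third. FPKM are not corrected by TMM, so these sums also carry the difference in composition between libraries.

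Levels per length depend on the length that the authors gave each locus. For SLC7A5 the length behind its FPKM was 34275 bases, 99.1% of the span of the locus, and for SLC7A1 it was 61418 bases, 88.4% of the span. Such loci take in introns as well as exons, so their FPKM spread the reads over a long stretch and unspliced RNA counts with mature RNA. For the other 18 tested carriers the share lay between 9.57% (SLC43A2) and 60.7% (SLC1A5). By mean count SLC7A1 ranked 1 among the 20, and by FPKM it ranked 4. SLC7A5 ranked 4 by count and 10 by FPKM. Comparisons of a gene between libraries do not depend on that length.

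Large neutral amino acids such as leucine enter cells by system L, formed by SLC7A5, SLC7A8, SLC43A1 and SLC43A2. SLC7A5, known as LAT1 and joined to SLC3A2, lies on chromosome 14 (14074054 to 14108652, in the coordinates of the table). It had 127, 139 and 121 CPM in atretic replicates 1, 2 and 3, and 97.8, 99.7 and 90.4 CPM in healthy replicates 1, 2 and 3. Every atretic library lay above every healthy one, and in CPM healthy replicate 3 was close to the other healthy libraries. In FPKM, without TMM, healthy replicate 3 had 2.01, against 2.83 and 2.85 in healthy replicates 1 and 2. The means were 129 ± 9.11 against 96.0 ± 4.92 CPM (SD, n = 3), with the log2 fold change at 0.43 (SE 0.11, adjusted p = 0.22 by edgeR). Without healthy replicate 3 it was 0.39 (SE 0.09, adjusted p = 0.0131 by edgeR). With library sizes alone in place of TMM, and without healthy replicate 3, SLC7A5 did not pass (0.27, adjusted p = 0.0596 by edgeR). In that scaling the median of all loci lay at -0.13.

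SLC43A1, known as LAT3, had 11, 12.9 and 12.2 CPM in the atretic libraries and 10.7, 10.5 and 2.72 CPM in the healthy ones. The groups did not overlap, but healthy replicates 1 and 2 lay just under the lowest atretic library and healthy replicate 3 far below it. The log2 fold change was 0.60 (SE 0.48, adjusted p = 0.662) and 0.19 by edgeR without healthy replicate 3 (adjusted p = 0.409 by edgeR). SLC43A2, known as LAT4, overlapped between groups, with 41.0, 50.1 and 40.0 CPM in atretic and 48.0, 46.1 and 41.9 CPM in healthy (log2 fold change -0.05, and -0.11 without healthy replicate 3, adjusted p = 0.905 and 0.543 by edgeR). SLC7A8, known as LAT2, lay under the tested level at a mean of 0.719 FPKM. The third SLC43 protein, SLC43A3, carries purine bases in place of amino acids. It had 18.9, 22.7 and 18.3 CPM in atretic and 38.3, 36 and 6.53 CPM in healthy. Healthy replicates 1 and 2 lay above all atretic libraries and healthy replicate 3 below them. Its log2 fold change was -0.43 (SE 0.59, adjusted p = 0.813), and -0.90 by edgeR without healthy replicate 3 (SE 0.12, adjusted p = 0.000609 by edgeR). SLC43A3 and SLC43A1 are neighbours on chromosome 15, 47906 bases apart on the same strand.

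Cationic amino acids such as arginine and lysine enter by SLC7A1, SLC7A2 and SLC7A3 and are exchanged by SLC7A6 and SLC7A7. SLC7A1, known as CAT1, had 810, 816 and 746 CPM in atretic and 709, 684 and 343 CPM in healthy, the highest counts of the carriers. All atretic libraries lay above all healthy ones, with healthy replicate 3 at 49.3% of the mean of the other 2 healthy libraries. The log2 fold change was 0.45 (SE 0.28, adjusted p = 0.573), and 0.18 by edgeR without healthy replicate 3 (adjusted p = 0.115 by edgeR). Among protein-coding loci alone, and without healthy replicate 3, SLC7A1 passed as higher (0.27, adjusted p = 0.0261 by edgeR). The locus of SLC7A1 also bears an Ensembl identifier that a protein-coding locus overlapping it on the opposite strand bears too. SLC7A2, known as CAT2, had 22.8, 19.3 and 23.7 CPM in atretic and 23.9, 18.4 and 4.77 CPM in healthy. Only healthy replicate 3 lay apart, and without it the log2 fold change moved from 0.48 to 0.05 (adjusted p = 0.762 and 0.84 by edgeR).

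SLC7A7, known as y+LAT1, exchanges cationic for neutral amino acids and in humans is known from macrophages as well as from gut and kidney. It had 12.6, 16.1 and 14.8 CPM in atretic and 39.7, 38.3 and 9.53 CPM in healthy. Healthy replicates 1 and 2 were far above all atretic libraries, while healthy replicate 3 was below them. The log2 fold change was -1.01 (SE 0.50, adjusted p = 0.462), and -1.43 by edgeR without healthy replicate 3 (SE 0.12, adjusted p = 2.92e-05 by edgeR), the largest among the 20. The locus overlaps OXA1L on the opposite strand. The related SLC7A6, known as y+LAT2, had overlapping groups. It had 24.9, 23.8 and 23.2 CPM in atretic and 24.4, 26.7 and 23.4 CPM in healthy, with the log2 fold change at -0.05 (SE 0.12, adjusted p = 0.9 by edgeR), and -0.09 without healthy replicate 3 (adjusted p = 0.595 by edgeR). Whether SLC7A6 and SLC7A7 differ in their change was not tested.

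**Figure D2:**
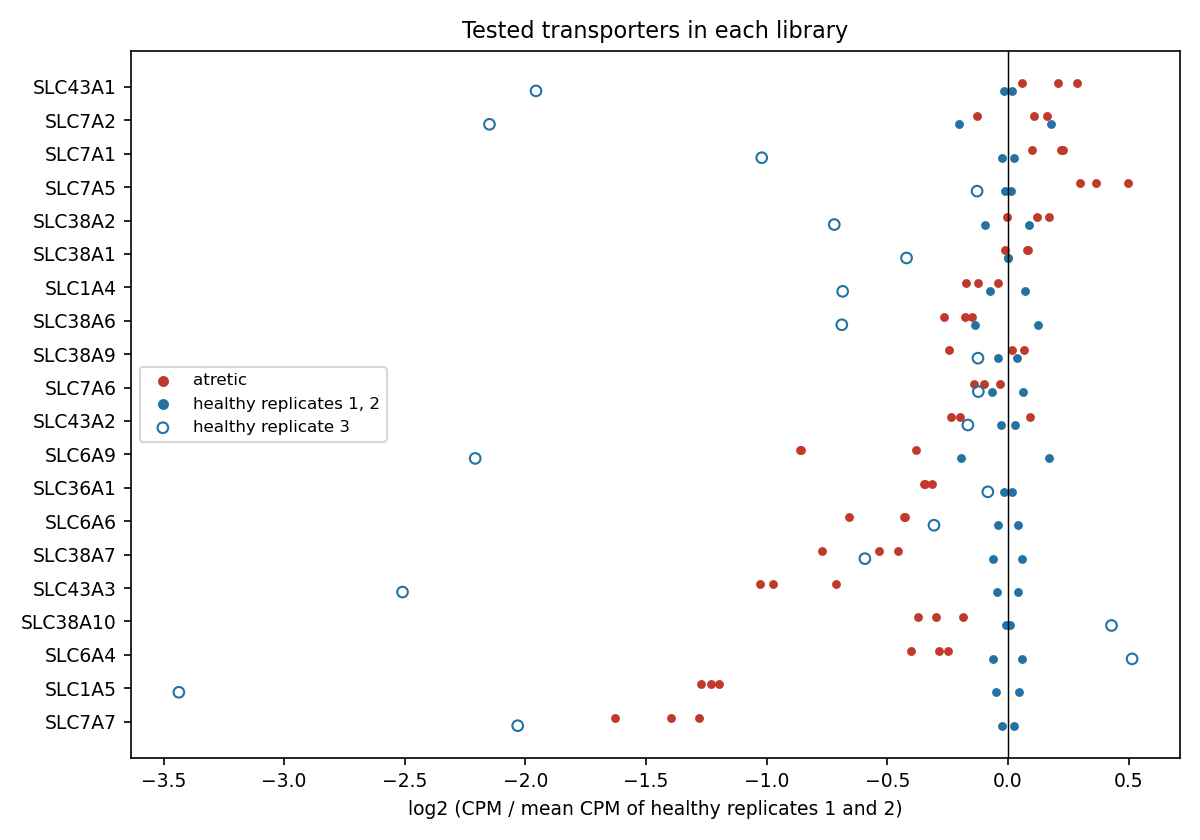
CPM of the 20 tested carriers in each library as log2 of the ratio to the mean of healthy replicates 1 and 2, sorted by the log2 fold change over all 6 libraries. Red points are atretic libraries, filled blue points healthy replicates 1 and 2, and open circles healthy replicate 3, which is the lowest library in 12 of the 20 carriers. SLC7A7, SLC1A5 and SLC43A3 are lower in all atretic libraries than in healthy replicates 1 and 2, and lower still in healthy replicate 3.

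The SLC1 family holds carriers of acidic amino acids and the exchangers SLC1A4 and SLC1A5, which trade small neutral amino acids. SLC1A5, known as ASCT2, is a main route for glutamine in dividing cells. It had 16.8, 17.1 and 16.3 CPM in atretic and 38, 40.7 and 3.63 CPM in healthy. Healthy replicates 1 and 2 were above every atretic library, and their mean was 10.8-fold above healthy replicate 3, the widest gap among the 20. The log2 fold change was -0.71 (SE 0.75, adjusted p = 0.755), and -1.24 by edgeR without healthy replicate 3 (SE 0.11, adjusted p = 2.43e-05 by edgeR). SLC1A4, known as ASCT1, had 11.3, 10.7 and 10.3 CPM in atretic and 12.2, 11 and 7.22 CPM in healthy, with overlap. Its log2 fold change of 0.08 turned to -0.11 without healthy replicate 3 (adjusted p = 0.917 and 0.619 by edgeR). None of the acidic amino acid carriers reached the tested level. SLC1A3, known as EAAT1, came nearest at a mean of 0.845 FPKM with 115 to 176 counts per library, SLC1A6 had 0.444 FPKM and SLC1A7 had 0.0698. SLC1A2 had 6 counts in healthy replicate 2 and 0 elsewhere, and SLC1A1 had 0 counts in every library.

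In the SLC38 family, SLC38A1, SLC38A2 and SLC38A4 form system A, the sodium-coupled uptake of alanine, glutamine and other small neutral amino acids. SLC38A2, known as SNAT2, had 560, 513 and 579 CPM in atretic and 482, 547 and 312 CPM in healthy. The groups overlapped, and healthy replicate 3 was the lowest library. The log2 fold change was 0.30 (SE 0.22, adjusted p = 0.629), and 0.09 by edgeR without healthy replicate 3 (adjusted p = 0.483 by edgeR). SLC38A1, known as SNAT1, had 172, 162 and 172 CPM in atretic and 163, 163 and 122 CPM in healthy, and the log2 fold change was 0.18 (SE 0.15, adjusted p = 0.67 by edgeR), and 0.05 without healthy replicate 3 (adjusted p = 0.713 by edgeR). Again only healthy replicate 3 was apart. The 3 system A genes lie together on chromosome 3, with 369039 bases between SLC38A4 and SLC38A2 and 42327 bases between SLC38A2 and SLC38A1. Their levels were far from alike, at 0.487, 81.5 and 4.4 FPKM. System N carriers, which move glutamine and histidine with sodium against protons, were under the tested level. SLC38A3 had 0.418 FPKM and 54 to 108 counts per library, and SLC38A5 had 22 counts in healthy replicate 1 and 0 elsewhere.

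SLC38A10, an intracellular carrier of the same family, had 72.5, 82.5 and 76.3 CPM in atretic and 94.4, 93.2 and 126 CPM in healthy. All atretic libraries lay below all healthy ones, and here healthy replicate 3 was the highest. The means were 77.1 ± 5.05 against 105 ± 18.8 CPM (SD, n = 3), with the log2 fold change at -0.44 (SE 0.15, adjusted p = 0.314 by edgeR). Without healthy replicate 3 it was -0.29 (SE 0.09, adjusted p = 0.0486 by edgeR). SLC38A6 had 16.0, 15.1 and 16.3 CPM in atretic and 16.5, 19.7 and 11.2 CPM in healthy, with the log2 fold change at -0.0019 (SE 0.22, adjusted p = 0.997 by edgeR), and -0.20 without healthy replicate 3 (adjusted p = 0.317 by edgeR). Its locus overlaps TRMT5 on the opposite strand.

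Lysosomal carriers export amino acids from the lysosome. SLC36A1, a proton-coupled carrier of small amino acids, had 83.1, 81.5 and 81.3 CPM in atretic and 102, 105 and 97.6 CPM in healthy. In CPM the groups were narrow and did not overlap, and healthy replicate 3 was the lowest healthy library. In FPKM, without TMM, healthy replicate 3 had 4.24, just above the atretic libraries at 4.12, 4.21 and 4.11. With library sizes alone and all 6 libraries, SLC36A1 had a log2 fold change of -0.32 (adjusted p = 0.602 by edgeR). With TMM the means were 82.0 ± 0.991 against 101 ± 3.58 CPM (SD, n = 3), with the log2 fold change at -0.31 (SE 0.10, adjusted p = 0.285), and -0.34 by edgeR without healthy replicate 3 (SE 0.08, adjusted p = 0.0153 by edgeR). SLC38A7, which exports glutamine, had 12, 14.1 and 14.9 CPM in atretic and 21.3, 19.6 and 13.6 CPM in healthy. Healthy replicates 1 and 2 were above every atretic library and healthy replicate 3 was among the atretic ones. Its log2 fold change was -0.41 (SE 0.21, adjusted p = 0.472), and -0.58 by edgeR without healthy replicate 3 (SE 0.14, adjusted p = 0.0134 by edgeR). SLC38A9, the lysosomal arginine sensor that signals to mTORC1, had 49.2, 39.6 and 47.6 CPM in atretic and 48.3, 45.7 and 43.1 CPM in healthy. The groups overlapped, and the log2 fold change was -0.0085 (SE 0.12, adjusted p = 0.987 by edgeR), and -0.05 without healthy replicate 3 (adjusted p = 0.784 by edgeR).

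**Figure D3:**
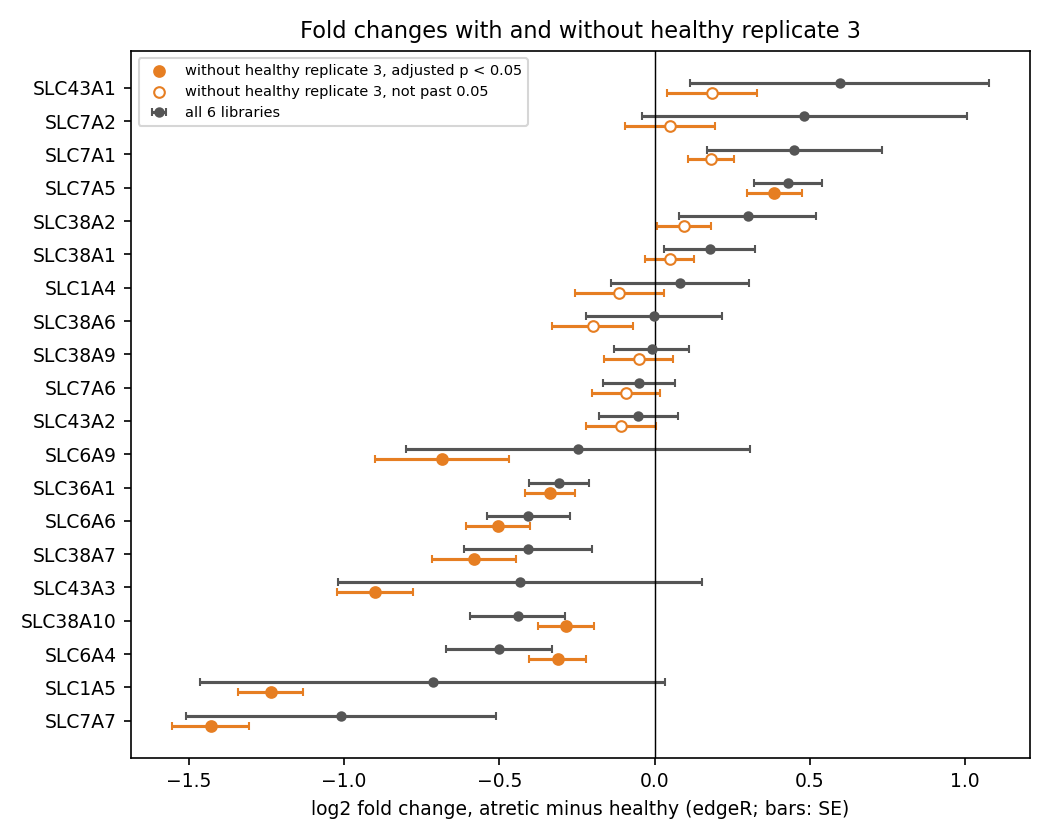
Log2 fold changes (atretic minus healthy, edgeR) of the 20 tested carriers with standard errors, over all 6 libraries in grey and without healthy replicate 3 in orange. Filled orange points are the 10 carriers with an adjusted p under 0.05 without that library, of which SLC7A5 alone is higher.

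The SLC6 family holds sodium- and chloride-coupled carriers of neurotransmitters, osmolytes and amino acids, and 3 of its 11 members were tested. SLC6A4, the serotonin carrier, was the most abundant of them. It had 72.6, 70.8 and 65.3 CPM in atretic and 82.6, 89.8 and 123 CPM in healthy. All atretic libraries lay below all healthy ones, with healthy replicate 3 the highest. The means were 69.5 ± 3.79 against 98.5 ± 21.6 CPM (SD, n = 3), with the log2 fold change at -0.50 (SE 0.17, adjusted p = 0.309), and -0.31 by edgeR without healthy replicate 3 (adjusted p = 0.0373 by edgeR). The locus of SLC6A4 overlaps a protein-coding locus on the opposite strand, described in the table as nuclear speckle splicing regulatory protein 1. No source used here says whether counting used strand, so reads of the overlap cannot be told apart.

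SLC6A6, the carrier of taurine, had 39.7, 39.8 and 33.8 CPM in atretic and 52.0, 55.0 and 43.3 CPM in healthy. The groups did not overlap, and healthy replicate 3 was the healthy library nearest to the atretic ones. The log2 fold change was -0.41 (SE 0.13, adjusted p = 0.298), and -0.50 by edgeR without healthy replicate 3 (SE 0.10, adjusted p = 0.00707 by edgeR). SLC6A9, the glycine carrier GLYT1, had the lowest mean of the tested carriers, 1.43 FPKM. It had 4.4, 6.14 and 4.4 CPM in atretic and 6.99, 9.0 and 1.73 CPM in healthy. Healthy replicates 1 and 2 lay above all atretic libraries and healthy replicate 3 below them, and the log2 fold change was -0.25 (SE 0.55, adjusted p = 0.899), and -0.68 by edgeR without it (SE 0.21, adjusted p = 0.049 by edgeR). For SLC6A8, the creatine carrier outside the 44, the log2 fold change was -0.04, and 0.10 without healthy replicate 3 (adjusted p = 0.939 and 0.571 by edgeR).

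By family, no tested member of SLC1 (2 tested of 7) had groups without overlap in CPM. In SLC6 (3 of 11), SLC36 (1 of 2) and SLC38 (6 of 11), 2, 1 and 1 members had all atretic libraries below all healthy ones. In SLC7 (5 of 10) and SLC43 (3 of 3), 2 and 1 members had all atretic libraries above all healthy ones. Together these were 3 carriers higher and 4 lower, where 11.1% of all tested loci were higher in this way and 10.8% were lower (8.25% and 14.2% of protein-coding loci). In FPKM, without TMM, the groups of SLC6A6, SLC7A1 and SLC43A1 overlapped. Median log2 fold changes were -0.32 in SLC1, -0.41 in SLC6, 0.43 in SLC7, -0.31 in SLC36, -0.0052 in SLC38 and -0.05 in SLC43. With 1 to 6 tested members each, they describe these genes only. Without healthy replicate 3 the SLC7 median was 0.05 and the SLC1 median -0.68.

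In SLC7, SLC7A3 had 58 counts in healthy replicate 2, 12 in atretic replicate 1 and 0 elsewhere, SLC7A4 had 0.49 FPKM, and SLC7A9 and SLC7A10 had 0 counts in every library. SLC7A9 is the carrier that forms the cystine uptake system of the kidney with SLC3A1. In SLC6, the betaine carrier SLC6A12 and the related SLC6A13 had 7 and 16 counts over all 6 libraries. The glycine carrier SLC6A5, the proline carrier SLC6A7, SLC6A15, SLC6A17 and the proline carrier SLC6A20 had means of 0.0935, 0.0228, 0.148, 0.441 and 0.203 FPKM. SLC36A2 (0.154 FPKM) and SLC38A8 (0.258 FPKM) were also low, and SLC38A11 had 0 counts in every library. A count of 0 allows up to 3 counts in a library, which is between 0.0333 and 0.0432 CPM, for counting error only. Nearest to the tested level from below were SLC1A3 (0.845 FPKM) and SLC7A8 (0.719), and just above it were SLC6A9 (1.43) and SLC1A4 (1.73).

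Healthy replicate 3 was the lowest of the 6 libraries in 12 of the 20 tested carriers and the highest in 2, where it was lowest in 33.2% and highest in 31.8% of all tested loci (38.2% and 27.3% of protein-coding ones). In 7 carriers it had under 50% of the mean of healthy replicates 1 and 2, as did 10.6% of all tested loci and 11.3% of protein-coding ones. These were SLC1A5 (9.24%), SLC43A3 (17.6%), SLC6A9 (21.6%), SLC7A2 (22.5%), SLC7A7 (24.5%), SLC43A1 (25.8%) and SLC7A1 (49.3%). The heavy chain SLC3A2 was also lowest there, with 38.8, 42.4 and 38.6 CPM in atretic and 50.2, 47.8 and 27.0 CPM in healthy. This is 1 library, so no spread can be given for it.

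Sums of markers of other cells had an order of libraries partly like that of several carriers. The 14 macrophage and leukocyte markers found of 15 summed to 464 to 514 CPM in atretic, 969 and 919 CPM in healthy replicates 1 and 2, and 609 CPM in healthy replicate 3. Of that sum CD68 made up 270 to 306 CPM in atretic and 335, 312 and 318 CPM in healthy, on a locus shared with EIF4A1 and POLR2A. The other 13 summed to 190 to 208 CPM in atretic and 634, 607 and 291 CPM in healthy, which is 30.6 to 33.6% of the mean of healthy replicates 1 and 2 in atretic. The 10 stroma and pericyte markers summed to 82.9 to 92.4 CPM in atretic, 176 and 175 CPM in healthy replicates 1 and 2, and 58.9 CPM in healthy replicate 3. Both sums, like SLC7A7, SLC1A5 and SLC43A3, were higher in healthy replicates 1 and 2 than in all other libraries. In healthy replicate 3 the macrophage sum lay above the atretic ones, and these 3 carriers below. F13A1, STAB1 and CYBB, the 3 loci called lower with all 6 libraries (adjusted p = 0.0438, 0.0497 and 0.0497 by edgeR), are from the macrophage list. In healthy replicate 3 they were at 126%, 89.7% and 90.6% of the mean of healthy replicates 1 and 2. Of the 14 macrophage markers, 9 were under 50% there. For 5 of the 14 (PTPRC, CD163, TYROBP, LAPTM5 and CD14) healthy replicate 3 was the lowest library, as for SLC7A7, SLC1A5 and SLC43A3. For 1, F13A1, it was the highest. The 8 endothelial markers summed to 17.4 to 19.1 CPM in atretic and 37.4, 45.2 and 22.8 CPM in healthy, with CDH5 and EMCN at 0 in 5 of the 6 libraries. None of the 8 reached a mean FPKM of 1. PECAM1 had 6.84, 7.39 and 5.13 CPM in atretic and 21.9, 30.2 and 16.1 CPM in healthy. The groups of VWF, KDR and TEK overlapped, so the sum does not describe the single markers. Of the oocyte markers 7 of 8 were found, summing to 27.4 to 31.1 CPM in atretic and 53.2, 53.3 and 4.41 CPM in healthy. Most of that sum was KIT (24.0 to 28.2 CPM in atretic and 43.5, 45.6 and 3.68 in healthy). The sum of the granulosa markers was at 101 to 103% of the mean of healthy replicates 1 and 2 in atretic and at 361% in healthy replicate 3. INHBA led that sum (14810 of 38071 CPM in healthy replicate 3), while single markers in that library ranged from 14.5% (GATM) and 97.2% (AMH) to 660% (INHBA). Single markers also differed in atretic. Without healthy replicate 3, INHBA and FSHR passed as higher (log2 fold change 0.28 and 0.25, adjusted p = 0.034 and 0.032 by edgeR). HSD17B1, on a locus shared with NAGLU, and FST passed as lower (-0.51 and -0.23, adjusted p = 0.00402 and 0.0424 by edgeR). The 2 erythrocyte markers found of 5 summed to at most 0.172 CPM, and the theca and steroid cell markers summed to 669 to 763 CPM in atretic and 696, 680 and 1532 CPM in healthy. INSL3 and CYP11A1, on loci shared with JAK3 and SEMA7A, made up nearly all of it, and CYP17A1 stayed at or under 0.414 CPM. STAR, on a locus shared with LSM1, went otherwise, with 9.58, 12.9 and 12.7 CPM in atretic and 45.4, 42.2 and 7.77 CPM in healthy. In bulk RNA, fewer cells of a type and less RNA per cell cannot be told apart, and the part of these cells in the values of the carriers was not tested.

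**Figure D4:**
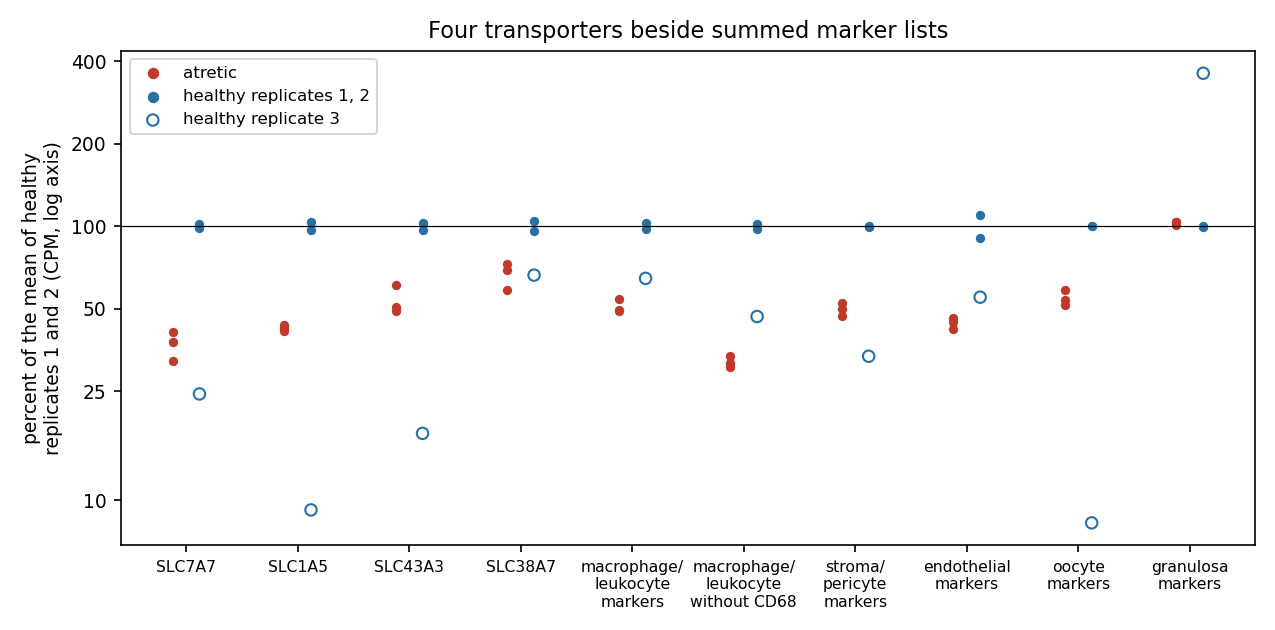
CPM of 4 carriers and summed CPM of 5 marker lists in each library, 1 of them also without CD68, as percent of the mean of healthy replicates 1 and 2, on a logarithmic axis. Red points are atretic libraries, filled blue points healthy replicates 1 and 2, and open circles healthy replicate 3. SLC7A7 lies at 32.4 to 41.2% in atretic, the macrophage and leukocyte markers at 49.2 to 54.5% with CD68 and 30.6 to 33.6% without it, and the granulosa markers at 101 to 103%.

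Among 22 other amino acid carriers and their heavy chains, 19 were found and 12 were tested. By edgeR 0 passed with all 6 libraries (at an unadjusted p under 0.05, 0 were higher and 1 was lower), and 0 were higher and 3 lower without healthy replicate 3. Over all tested loci the shares were 6.37% and 6.41% unadjusted, and 10.9% and 7.91% without that library. Over protein-coding loci they were 3.88% and 8.64%, and 5.88% and 10.9%. The 3 were SLC15A3, a lysosomal peptide and histidine carrier known from macrophages, the heavy chain SLC3A2 and the lysosomal cystine carrier CTNS, whose locus is shared with EMC6. SLC15A3 had 2.2, 3.21 and 2.71 CPM in atretic and 11.6, 11.1 and 1.54 CPM in healthy, the same order of libraries as SLC7A7. For SLC3A2 the log2 fold change was -0.06 with all libraries and -0.30 without healthy replicate 3 (adjusted p = 0.941 and 0.0496 by edgeR). The other heavy chain, SLC3A1, lay under the tested level at 0.146 FPKM. SLC15A4 was the carrier lower at an unadjusted p under 0.05 with all 6 libraries, with no overlap between groups. Its log2 fold change was -0.38, and -0.36 without healthy replicate 3 (adjusted p = 0.343 and 0.106 by edgeR). The cystine carrier SLC7A11, which also binds SLC3A2, had 23.2, 24.1 and 27.0 CPM in atretic and 13.1, 13.0 and 1.93 CPM in healthy, and its log2 fold change was 1.40 with all libraries and 0.92 without healthy replicate 3 (adjusted p = 0.429 and 0.000519 by edgeR).

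Of 36 genes that sense amino acids, 35 were found and 33 tested, with 0 called by edgeR in all 6 libraries (3 higher and 2 lower at an unadjusted p under 0.05), and 4 higher and 2 lower without healthy replicate 3. Over all loci the shares were 10.9% and 7.91% without that library, and 6.37% and 6.41% unadjusted. Over protein-coding loci they were 5.88% and 10.9%, and 3.88% and 8.64%. As few of the 33 genes passed, the counts are not read as a result about the list. DDIT3, a transcription factor of the integrated stress response, had 20.7, 22.7 and 24.9 CPM in atretic and 16.2, 14.6 and 15 CPM in healthy, with no overlap (log2 fold change 0.58, adjusted p = 0.198, and 0.012 by edgeR without healthy replicate 3). LAMTOR5, a part of the scaffold that holds mTORC1 at the lysosome, had 12.7, 12.7 and 11.8 CPM in atretic and 7.86, 8.3 and 8.13 CPM in healthy (log2 fold change 0.61, adjusted p = 0.186, and 0.0149 by edgeR without healthy replicate 3). RRAGB and FNIP1 were the other 2 higher genes, and the leucine sensor SESN3 and RRAGC were the lower ones. The 2 genes lower at an unadjusted p under 0.05 with all 6 libraries, both with no overlap, were CASTOR1 and SESN3. Their log2 fold changes were -0.83 and -0.44 (adjusted p = 0.282 and 0.287 by edgeR). Without healthy replicate 3 CASTOR1 had -0.80 (adjusted p = 0.0621 by edgeR). ATF4, which drives transcription of several carriers when amino acids are short, had 198, 237 and 202 CPM in atretic and 192, 191 and 134 CPM in healthy. The groups did not overlap, but ATF4 passed neither with all libraries (log2 fold change 0.30, adjusted p = 0.547 by edgeR) nor without healthy replicate 3 (0.14, adjusted p = 0.322 by edgeR). Its target ASNS, asparagine synthetase, showed 0.26 as its log2 fold change, and 0.17 without healthy replicate 3 (adjusted p = 0.606 and 0.537 by edgeR).

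Of 16 enzymes of serine, glycine, glutamine and branched-chain amino acid metabolism, 15 were found and 11 tested, with 0 called by edgeR in all 6 libraries (2 higher and 3 lower at an unadjusted p under 0.05), and 2 higher and 2 lower without healthy replicate 3. All tested loci gave 10.9% and 7.91% without that library, and 6.37% and 6.41% unadjusted. Protein-coding loci gave 5.88% and 10.9%, and 3.88% and 8.64%. The mitochondrial folate enzyme MTHFD2 had 122, 109 and 117 CPM in atretic and 73.7, 70.8 and 50.6 CPM in healthy. Every atretic library was above every healthy one (log2 fold change 0.84, adjusted p = 0.156, and 0.000428 by edgeR without healthy replicate 3). PSPH, the last enzyme of serine synthesis, was the other higher gene (log2 fold change 0.89 with all libraries and 0.65 without healthy replicate 3, adjusted p = 0.289 and 0.0337 by edgeR). PHGDH, the enzyme that opens serine synthesis, had 56.7, 68.5 and 53.8 CPM in atretic and 130, 130 and 68.2 CPM in healthy, and passed as lower without healthy replicate 3 (log2 fold change -1.13, adjusted p = 5.73e-05 by edgeR), as did glutamate dehydrogenase GLUD1 (-0.39, adjusted p = 0.0134 by edgeR). With all 6 libraries PHGDH had -0.87 and GLUD1 -0.14 (adjusted p = 0.279 and 0.862 by edgeR). SHMT2, on a locus shared with NXPH4, and BCAT2 were lower with no overlap in all 6 libraries. Their log2 fold changes were -0.69 and -0.42 (adjusted p = 0.374 and 0.319 by edgeR). Without healthy replicate 3 they were -0.29 and -0.30 (adjusted p = 0.0579 and 0.106 by edgeR). PHGDH and PSPH belong to the same pathway and had fold changes of opposite sign.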

How the data were processed

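RNA-seq libraries of 3 atretic and 3 healthy samples were used. The authors deposited 1 table of 34119 loci with raw counts and FPKM per library, per the file headers. StringTie 2.1.6, HISAT2 2.0.4, cutadapt 1.9, SAMtools and FastQC 0.11.9 are named in the submitters' processing notes, with no role or order. The genome build, annotation and use of strand are stated in none of the sources used here, so no sequence was read. The 5640 unnamed loci (8.88 to 11.5% of counts per library) entered neither the library sizes nor the tests.

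Named loci with a mean FPKM of at least 1 (14702) were fitted with edgeR 4.0.16 (R 4.3.3; TMM, quasi-likelihood, group alone, two-sided, Benjamini-Hochberg at 0.05). The SE comes from the F statistic. DESeq2 1.42.0 and limma 3.58.1 were alternatives, and the fit was tested on simulated data. Each of the 44 carriers had 1 protein-coding locus. For 9 of them, 13 further loci bore the symbol without an annotated transcript and were not used. Other symbols came from the table or, for 433 of 6874 loci named by an Ensembl identifier, from the RefSeq list of assembly ARS-UI_Ramb_v3.0. Of 137 genes in the lists, 126 were found, and the others, among them CYP19A1, MRC1, DAZL, HBB, ALAS2, SLC4A1, SLC17A6, SLC25A18, SLC25A44 and KICS2, were not analysed here. A carrier is counted but not reported by name here.

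The members and lists were chosen with earlier results of these data known. Values in each library were to be given for carriers with no overlap or an unadjusted p under 0.05 and for the 10 with the highest FPKM. SLC1A4, SLC1A5, SLC6A9, SLC7A2, SLC7A6, SLC38A6, SLC38A7 and SLC38A9, the 4 carriers plotted beside the markers and the genes named from the other lists were added after their values were seen, as was the marker sum without CD68. Figures used Python 3.11.15, pandas 2.3.3 and matplotlib 3.10.9.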

Additional observations from a re-analysis of the deposited data

How the results depend on the processing

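Of the carriers, edgeR called 0 higher and 0 lower under every other normalization, filter, dispersion or choice of loci tried with all 6 libraries, and so did limma, while DESeq2 called 1 higher. Over all loci the calls were 7 higher and 3 lower. They were 11 and 1 with library sizes alone, 2 and 0 with no filter, 2 and 0 with filterByExpr and 372 and 257 by DESeq2. Keeping unnamed loci gave 33 and 4, protein-coding loci alone 14 and 5, and robust dispersions 5 and 1. For limma they were 10 and 1 with a pseudocount of 1, and 7 and 1 with a pseudocount of 0.1. Leaving out 1 library gave 0 to 1598 higher and 0 to 1163 lower loci, and 0 to 1 higher and 0 to 9 lower carriers, the highest counts all without healthy replicate 3.

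Chosen after the data were seen and also without healthy replicate 3, DESeq2 called 2113 higher and 1534 lower loci, library sizes alone 1109 and 2362, and protein-coding loci alone 960 and 765. For carriers these gave 1 and 9, 0 and 9, and 2 and 5. SLC1A5, SLC6A6, SLC7A7, SLC38A7 and SLC43A3 were lower in all 4 fits without that library. SLC7A5 was higher in 3 of them, and SLC6A4, SLC6A9, SLC36A1 and SLC38A10 were not called among protein-coding loci alone (adjusted p = 0.112, 0.0674, 0.0596 and 0.14 by edgeR). The SLC6, SLC7, SLC36 and SLC38 medians moved to -0.62, -0.0696, -0.46 and -0.24 with library sizes alone, and the SLC36 median to -0.25 with protein-coding loci (-0.27 with all 6 libraries). Without that library, the median of all tested loci was -0.01 with TMM and -0.13 with library sizes alone. What else moved the family medians was not tested. Without CD68 the macrophage and leukocyte sum in atretic was 31.9% in place of 51.0% of healthy replicates 1 and 2.

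The replicate block gave 0 higher and 0 lower loci and 0 carriers. Libraries of the same number did not deviate together from their group means (r = -0.148, 0.0622 and -0.0028). The healthy deviations turn largely on healthy replicate 3, so this check cannot say whether the numbers pair the libraries.

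The sign of some carriers turned. SLC38A6 became 0.0062 (RLE), 0.0039 (no filter), 0.000258 (filterByExpr), 0.0059 (DESeq2), 0.00299 (limma, pseudocount 0.1), 0.0503 (protein-coding loci) and 0.0347 (block). SLC38A9 became 0.0371 (protein-coding loci) and 0.0408 (the same without healthy replicate 3), and SLC6A9 0.01003 (block). Leaving out 1 library moved SLC38A6 between -0.20 and 0.20, SLC38A9 between -0.0691 and 0.0810, SLC43A2 between -0.16 and 0.0061, SLC6A9 between -0.68 and 0.20, SLC7A6 between -0.0928 and 0.0107 and SLC1A4 between -0.11 and 0.24. With library sizes alone and without healthy replicate 3, SLC1A4 was -0.23, SLC7A2 -0.0696, SLC38A1 -0.0700 and SLC38A2 -0.0236. SLC1A4 was -0.11 there by DESeq2 and -0.0239 among protein-coding loci. The biological coefficient of variation was 0.29 with all libraries and 0.156 without healthy replicate 3, and depth was not varied.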
